A study of Mus musculus with 14 samples.

Results

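Vegfa, Klk1b11 and Mex3b are 3 of the 55414 genes counted in primary mouse bone marrow-derived macrophages (pBMDMs) that had been exposed to supernatants of fibroblasts. They were chosen by name because their mRNA was lower after supernatant of 4OHT-treated fibroblasts than after control supernatant, whether or not Ferrostatin-1 (Fer1) was present. That choice used the values themselves, so the levels that define it are described here without a test. All 3 genes were among the 12851 genes with enough counts to be tested, and Mex3b passed that filter only through the groups in which it was high.

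The pBMDMs came from wildtype C57BL/6N mice of 6 to 9 weeks, were differentiated with M-CSF at 25 ng/ml, and were kept for 24 h with filtered supernatant or with medium that had held no fibroblasts. The supernatants came from Pfa1 cells, mouse embryonic fibroblasts in which 4-hydroxytamoxifen (4OHT, abbreviated Tam in the sample labels) deletes the gene of GPX4, a selenoenzyme that detoxifies oxidised membrane lipids. Without it these cells die by ferroptosis, in which iron-catalysed oxidation damages the membranes until the cell bursts, and Fer1 is a radical-trapping compound that blocks it. The groups were ctrl (supernatant of untreated Pfa1 cells, n = 3), 4OHT (supernatant with 1 µM 4OHT, n = 3), 4OHT+Fer1 (supernatant with 1 µM of each, n = 3), Fer1 (supernatant with 1 µM Fer1, n = 3) and medium (n = 2, replicate numbers 1 and 2). No group received 4OHT in medium without fibroblasts, so the agent carried over in the supernatant and the loss of GPX4 in the fibroblasts cannot be told apart, nor can Fer1 carried over and its effect on the fibroblasts.

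Vegfa encodes vascular endothelial growth factor A, the secreted ligand that drives growth and permeability of blood vessels through the receptor tyrosine kinases encoded by Flt1 and Kdr, and macrophages are a known source of it in hypoxic and wounded tissue. Its transcription is a textbook target of hypoxia-inducible factors (HIFs), and its mRNA is subject to control through AU-rich elements. Klk1b11 belongs to the glandular kallikreins, a mouse cluster of serine proteases related to Klk1, whose product releases kinin peptides from kininogen and is best known in salivary gland and kidney. Mex3b is one of the Mex3 genes, which encode RNA-binding proteins with KH domains, and it has been linked to the sensing of RNA by the Toll-like receptor encoded by Tlr3.

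In the GENCODE M21 annotation of GRCm38, Vegfa lies at chr17:46016993-46032369 on the minus strand, with 8 exons in its longest model, 13 transcripts and 9 different 3′ ends. Klk1b11 lies at chr7:43995877-43999875 on the plus strand with 5 exons and 1 transcript. Mex3b lies at chr7:82867333-82871515 on the plus strand with 2 exons and 1 transcript. No annotated gene overlaps any of the 3. Because the libraries were read from the 3′ end, the last bases of each transcript decide which gene a read is given to. Of the 251 words of 50 bases, the read length, in the last 300 bases of the longest transcript, 0 of Vegfa and 0 of Mex3b and 1 of Klk1b11 (0.398%) also occurred in another gene.

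The promoter stretches of the 3 genes are shown because the genes were low together and a reader may want to see what their starts share. Each is the 250 bases before the start in RefSeq on GRCm38.p6, written 5′ to 3′ along the gene, at chr17:46032378-46032627 (minus strand) for Vegfa, chr7:43995627-43995876 (plus) for Klk1b11 and chr7:82867083-82867332 (plus) for Mex3b. Capitals mark matches to the motifs searched.
Vegfa: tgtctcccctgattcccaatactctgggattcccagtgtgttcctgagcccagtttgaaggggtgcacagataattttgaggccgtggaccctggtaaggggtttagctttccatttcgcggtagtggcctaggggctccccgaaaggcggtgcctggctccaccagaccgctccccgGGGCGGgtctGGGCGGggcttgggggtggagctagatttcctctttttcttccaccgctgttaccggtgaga
Klk1b11: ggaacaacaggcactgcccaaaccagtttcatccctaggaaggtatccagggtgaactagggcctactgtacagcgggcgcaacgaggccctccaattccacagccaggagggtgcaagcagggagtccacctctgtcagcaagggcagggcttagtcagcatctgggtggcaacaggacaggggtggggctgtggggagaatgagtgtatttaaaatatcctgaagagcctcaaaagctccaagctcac
Mex3b: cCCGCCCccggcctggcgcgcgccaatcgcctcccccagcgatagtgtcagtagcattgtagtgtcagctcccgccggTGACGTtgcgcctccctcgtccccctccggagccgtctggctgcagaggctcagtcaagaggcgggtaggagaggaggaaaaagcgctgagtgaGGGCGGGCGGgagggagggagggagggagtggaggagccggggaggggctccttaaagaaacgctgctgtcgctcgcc

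Both strands were searched for the hypoxia response core (ACGTG or GCGTG), the cAMP response element core (TGACGT), the AP-1 site (TGACTCA), the GC box (GGGCGG) and the TATA box (TATAAA), of which the first and the second can share bases. Vegfa held 2 GC boxes, and Mex3b held 3 GC boxes, of which 2 overlap, and 1 cAMP response element core. In Klk1b11 the letters of none of the 5 motifs were found, and no motif was found in all 3 stretches. Among 32851 such stretches of mouse genes, 32.7% held the GC box, 6.47% the cAMP response element core and 38.6% the hypoxia response core. The GC content was 59.2% for Vegfa, 56.0% for Klk1b11 and 68.4% for Mex3b, beside a median of 52.4% over all stretches. RefSeq also lists a second, internal start of Vegfa, whose stretch at chr17:46025164-46025413 held 2 hypoxia response cores, a cAMP response element core and a GC box. The cAMP response element core shared bases with 1 of the hypoxia response cores. This second stretch lies inside the Vegfa gene. The letters around its hypoxia and cAMP response cores read in frame as part of the encoded protein, so they may be coding letters and not promoter sites. The letters are a description of sequence and no measurement of binding was made.

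Total counts ran from 7823051 to 11052352 per sample, and 3 counts correspond to 0.272 to 0.381 CPM, the counts scaled to library sizes of 1000000. The macrophage markers Adgre1, Itgam, Csf1r, Cd68, Lyz2, Mertk, Fcgr1 and Spi1 were all above 3 counts in every group, with a summed level of 18951 to 44005 CPM. That sum was 28318 to 44005 CPM in 4OHT and 18951 to 27915 CPM in ctrl, so these groups did not overlap, while 4OHT+Fer1 (22616 to 29131 CPM) overlapped with both. Of the genes tested, 5.21% had all 4OHT samples above all ctrl samples. The sum was mostly Lyz2, with 2799005 counts over the 14 samples beside 437217 of Csf1r, the next highest. In 4OHT against ctrl 0 of the 8 markers were called, beside 1.11% of all genes tested, and 6 had a positive log2 fold change. Fibroblast markers summed to 16.8 to 129 CPM, with overlap between all groups, and neutrophil markers to 3.09 to 28.0 CPM over the supernatant groups and to 38.2 to 55.1 CPM in medium. The neutrophil markers Ly6g and Elane had 0 counts in every sample and the fibroblast marker Thy1 had 1 count in all, and dendritic cell markers summed to at most 3.43 CPM and T and B cell markers to at most 3.72 CPM. What part these shifts have in the levels of the 3 genes was not tested. In bulk RNA, fewer cells that make an mRNA and less mRNA per cell cannot be told apart.

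Vegfa mRNA was high in pBMDMs that saw medium or supernatant without 4OHT, lower with 4OHT supernatant, and lowest with 4OHT+Fer1 supernatant. It was at 40.0, 32.6 and 45.6 CPM in ctrl, replicates 1 to 3, and at 39.7, 31.0 and 24.4 CPM in Fer1. With 4OHT supernatant it was at 10.5, 10.6 and 7.84 CPM, and with 4OHT+Fer1 at 4.39, 2.44 and 3.89 CPM. In medium it was at 57.0 and 67.2 CPM. The 3 samples of 4OHT and the 3 samples of 4OHT+Fer1 were below all samples of ctrl, Fer1 and medium, and no sample of 4OHT+Fer1 reached the lowest sample of 4OHT. Of the 12851 genes tested, 5.85% had all 4OHT samples below all ctrl samples, 2.85% had all 4OHT+Fer1 samples below ctrl, 3.20% had them below Fer1, and 4.40% had all 4OHT samples above 4OHT+Fer1.

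The mean level of Vegfa was 39.4 ± 6.47 CPM (SD, n = 3) in ctrl, 9.65 ± 1.57 CPM in 4OHT (24.5% of ctrl), 31.7 ± 7.69 CPM in Fer1 and 3.57 ± 1.01 CPM in 4OHT+Fer1, which was 9.07% of ctrl and 11.3% of Fer1. From highest to lowest the order was medium, ctrl, Fer1, 4OHT and 4OHT+Fer1, and only ctrl and Fer1 overlapped as neighbours in it. Within the same replicate number, 4OHT minus ctrl was -1.90, -1.60 and -2.51 on the log2 scale, and 4OHT+Fer1 minus ctrl was -3.13, -3.63 and -3.48. The direction was thus the same in 3 of 3 replicate numbers for each. These differences are the ones Vegfa was chosen for.

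Klk1b11 mRNA showed the same direction on top of a wide gap between replicates. It was at 7.89, 8.84 and 1.65 CPM in ctrl, replicates 1 to 3, and at 7.23, 8.96 and 1.76 CPM in Fer1. The values were 2.00, 2.45 and 0.126 CPM in 4OHT and 0.731, 1.49 and 0.307 CPM in 4OHT+Fer1, and 4.69 and 4.89 CPM in medium. Replicate 3 was the lowest of its group in each of the 4 supernatant groups, so the 4OHT samples overlapped with ctrl, Fer1 and 4OHT+Fer1, whereas no 4OHT+Fer1 sample reached ctrl or Fer1. The gap was small, from 1.49 CPM in 4OHT+Fer1 to 1.65 CPM in ctrl and 1.76 CPM in Fer1. Of the genes tested, 2.85% had all 4OHT+Fer1 samples below ctrl and 3.20% had them below Fer1.

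Compared within replicate number, Klk1b11 was lower in 4OHT than in ctrl, with log2 differences of -1.87, -1.77 and -2.46. For 4OHT+Fer1 minus ctrl they were -3.10, -2.41 and -1.85, and for 4OHT+Fer1 minus Fer1 -2.98, -2.43 and -1.93. In replicate 3 of 4OHT the value rests on 1 count, and the prior count of 2 in the log2 levels drew its difference from ctrl toward 0. As plain ratios of CPM, 4OHT over ctrl was 0.253, 0.277 and 0.0764 in replicates 1 to 3. Group means were 6.13 ± 3.90 CPM (SD, n = 3) in ctrl, 5.99 ± 3.76 CPM in Fer1, 1.52 ± 1.23 CPM in 4OHT (24.9% of ctrl) and 0.841 ± 0.597 CPM in 4OHT+Fer1 (13.7% of ctrl). From highest to lowest the order was ctrl, Fer1, medium, 4OHT and 4OHT+Fer1, and only medium and 4OHT did not overlap as neighbours in it.

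Of the 3 genes only Klk1b11 had its lowest value in replicate 3 in all 4 supernatant groups. Its mean of replicates 1 and 2 was 5.06 times that of replicate 3 in ctrl, 4.60 times in Fer1, 3.61 times in 4OHT+Fer1 and 17.6 times in 4OHT. Averaged over the 4 supernatant groups, replicate 3 minus the mean of replicates 1 and 2 was -2.10 on the log2 scale for Klk1b11, which placed it at rank 45 from the lowest of 12851 genes. The same difference was -0.09 for Vegfa and -0.03 for Mex3b. Replicate 3 was the lowest of its group in all 4 supernatant groups for 980 of the 12851 genes, or 7.63%. The summed neutrophil markers were also lowest in replicate 3 in 4 of 4 supernatant groups, at 3.09 to 5.32 CPM there against 8.46 to 28.0 CPM in replicates 1 and 2. T and B cell markers were so too, but at sums of at most 3.72 CPM, with replicates 1 and 3 of 4OHT at 1.16 and 1.14 CPM. Fibroblast markers were so in 0 of 4 and macrophage and dendritic cell markers in 1 of 4 each. The part of these markers in the low Klk1b11 of replicate 3 was not tested. The replicate number stands for the mouse in the fit, and nothing else in the labels tells replicate 3 apart.

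Mex3b mRNA was at low counts throughout and at or near 0 counts with either 4OHT supernatant. It had 21, 31 and 21 counts in ctrl, 28, 21 and 14 in Fer1 and 23 and 21 in medium. With 4OHT supernatant the counts were 1, 4 and 1, and with 4OHT+Fer1 they were 0, 0 and 2. None of these 6 samples reached any sample of the other groups, a separation from ctrl that 5.85% of the genes tested had for 4OHT and 2.85% for 4OHT+Fer1, and the 4OHT and 4OHT+Fer1 samples overlapped with each other. Both 4OHT groups were at about the level of 3 counts per library or below it, so how far Mex3b went down was not measurable at this depth.

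As levels, Mex3b was at 2.52 ± 0.524 CPM (SD, n = 3) in ctrl, 2.17 ± 0.618 CPM in Fer1, 0.198 ± 0.143 CPM in 4OHT and 0.0682 ± 0.118 CPM in 4OHT+Fer1. Summed over the 3 libraries and scaled to their depth, ctrl was 12.0 times 4OHT (6 counts against 73) and 36.3 times 4OHT+Fer1 (2 counts against 73). No interval is given, because Mex3b was chosen for these differences and passed the filter only through the groups where it was high. The fitted log2 fold changes of Mex3b, -3.53 for 4OHT against ctrl and -4.92 for 4OHT+Fer1 against ctrl, rest on these few counts and are not bounds. Medium, ctrl and Fer1 overlapped, and the step in the order of levels lay between Fer1 and 4OHT.

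**Figure D1:**
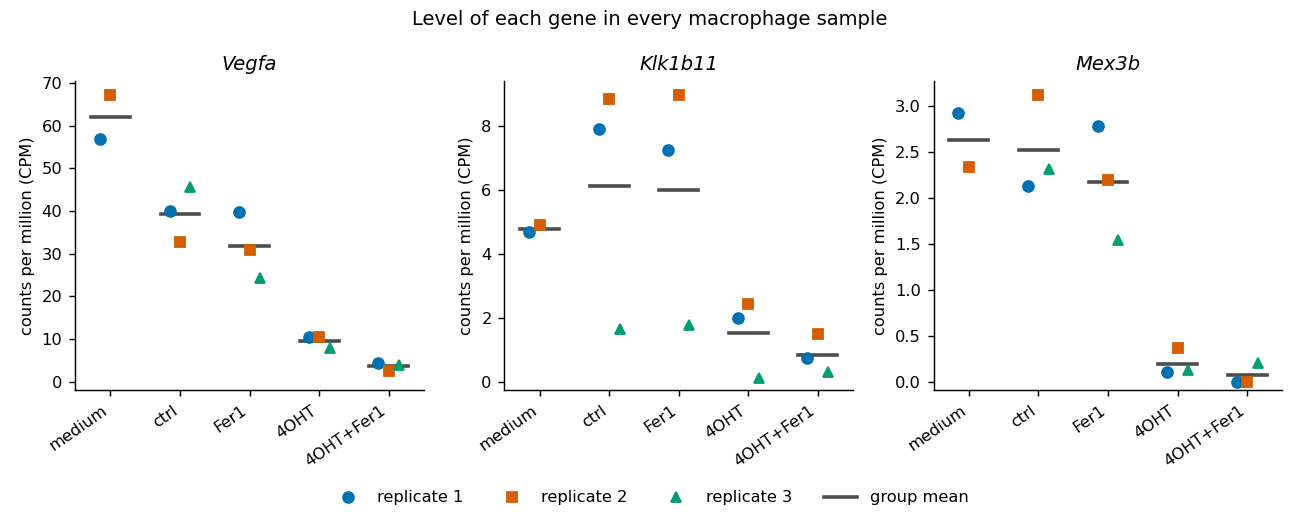
Level in CPM (vertical axes, linear, each gene on its own scale) of Vegfa, Klk1b11 and Mex3b in the 14 samples by group, with points for samples, shapes and colours for replicate numbers and bars for group means. All 3 genes are low in 4OHT and 4OHT+Fer1, and replicate 3 of Klk1b11 lies below replicates 1 and 2 in each supernatant group.

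Across all genes, edgeR's quasi-likelihood test with the replicate number as a block called genes at a change of over 1 on the log2 scale and a Benjamini-Hochberg adjusted p below 0.05. It called 98 of 12851 genes lower in 4OHT than in ctrl, or 0.763%, and 143 in either direction, or 1.11%. In 4OHT+Fer1 against ctrl it called 4 genes (0.0311%), all lower, and in 4OHT+Fer1 against Fer1 3 genes (0.0233%), all lower. Vegfa, Klk1b11 and Mex3b were chosen by these comparisons, so only their fitted values are given, with no call. In 4OHT against ctrl the fitted log2 fold changes were -2.03 for Vegfa, -2.06 for Klk1b11 and -3.53 for Mex3b. In 4OHT+Fer1 they were -3.47 for Vegfa and -2.84 for Klk1b11 against ctrl, and -3.14 and -2.82 against Fer1.

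The comparison of 4OHT with 4OHT+Fer1 was not used in the choice, although its 6 samples were. A choice for low levels in both groups can bias the difference between them. The p-values and intervals of this comparison do not allow for that. Vegfa was higher in 4OHT than in 4OHT+Fer1 in 3 of 3 replicate numbers, by 1.22, 2.03 and 0.97 on the log2 scale. The fitted log2 fold change was 1.44 (SE 0.26, 95% interval 0.87 to 2.00, edgeR adjusted p = 0.0247), or a ratio of means of 2.7. It was thus 1 of the 38 genes called higher in 4OHT in this comparison (0.296% of those tested), and 1 of 132 called in either direction (1.03%). Without the replicate block edgeR's adjusted p was 0.0504. Over the alternatives edgeR's adjusted p ran from 0.00238 (no filter) to 0.552, and DESeq2's was 0.000101. The call was lost with replicate 1 left out (log2 fold change 1.56, edgeR adjusted p = 0.321) and with replicate 2 left out (1.14, edgeR adjusted p = 0.552). The fibroblast marker Col1a1 was called in the same comparison in the other direction (log2 fold change -1.14, edgeR adjusted p = 0.0456), with 5.07 to 13.0 CPM in 4OHT and 6.90 to 41.5 CPM in 4OHT+Fer1. It was the only 1 called of 6 fibroblast markers tested, whose median log2 fold change was -0.15. The Col1a1 call was lost without the replicate block, with only these groups fitted and with any 1 replicate left out. The part of Col1a1 in the Vegfa difference was not tested.

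For Klk1b11 the log2 differences between 4OHT and 4OHT+Fer1 were 1.23, 0.65 and -0.62, positive in 2 of 3 replicate numbers. The fitted value was 0.78 (SE 0.38, 95% interval -0.06 to 1.61, edgeR adjusted p = 0.465). This difference was not larger than the spread between replicates, and its interval includes the value fitted for Vegfa. For Mex3b, with 1, 4 and 1 counts in 4OHT and 0, 0 and 2 counts in 4OHT+Fer1, a difference between these groups was not detectable at this depth, and no test is given.

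Fer1 supernatant was compared with ctrl supernatant to see whether Fer1 alone moved the genes, with the reserve that the ctrl and Fer1 samples both took part in the choice. Mex3b also passed the count filter only through groups in which it was high, ctrl and Fer1 among them. Vegfa differed by -0.01, -0.08 and -0.89 within replicate number and by -0.33 in the fit (95% interval -0.81 to 0.16). For Klk1b11 the fitted value was -0.02 (interval -0.66 to 0.62) and for Mex3b -0.21 (interval -1.27 to 0.84). All 3 had an edgeR adjusted p of 1.00, which does not show that Fer1 left them unchanged. For this comparison the paper reports that its own DESeq2 p-values strayed from a uniform null, which it reads as low sensitivity. The intervals leave room for a change of Mex3b of over 1 in the downward direction. In this comparison edgeR called 0 of 12851 genes (0%), with 146 genes at an unadjusted p below 0.05, and DESeq2 called 3.

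Medium that had held no fibroblasts gave each gene a different place. Vegfa was higher in medium than in ctrl by 0.51 and 1.04 in replicates 1 and 2, with a fitted log2 fold change of 0.63. Klk1b11 differed from ctrl by -0.72 and -0.83 in the same replicates, with a fitted value of -0.81, although its medium samples lay within the range of ctrl because ctrl replicate 3 was low. Mex3b was at 2.92 and 2.33 CPM in medium, differing from ctrl by 0.42 and -0.39, with a fitted value of -0.01. In this comparison 1001 of 12851 genes were called (7.79%). Against the mean of the 4 supernatant groups the fitted values were 2.09 for Vegfa, 0.42 for Klk1b11 and 2.16 for Mex3b, and no test is given because the mean holds the groups in which the genes were chosen to be low. The neutrophil markers Ngp and S100a8 and the fibroblast markers Col1a1 and Col1a2 were called higher in medium than in ctrl, with log2 fold changes of 1.88, 1.49, 1.17 and 1.22 (edgeR adjusted p from 0.0101 to 0.0428), and their part in the levels in medium was not tested.

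**Figure D2:**
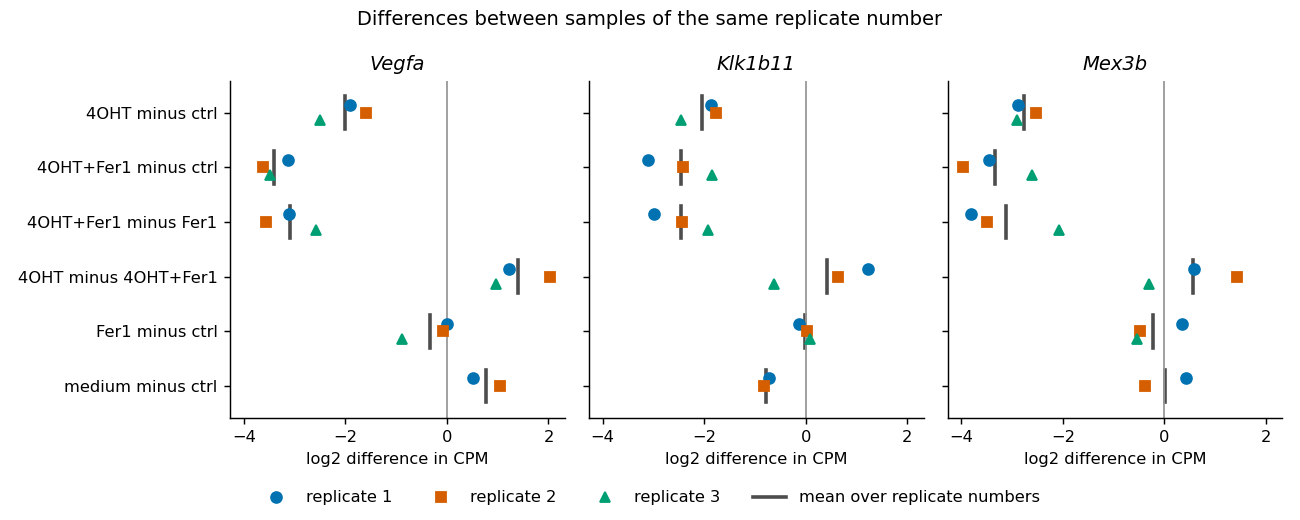
Log2 differences in CPM (horizontal axes) between samples of the same replicate number for 6 pairs of groups (vertical axis), with points for replicate numbers and bars for their mean. For 4OHT minus ctrl and both differences that involve 4OHT+Fer1 against a group without 4OHT all points lie left of 0, while for 4OHT minus 4OHT+Fer1 all 3 points lie right of 0 for Vegfa only.

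Of the other VEGF ligands only Vegfb had enough counts to be tested. Vegfb, the ligand of the receptor encoded by Flt1, was at 49.3 ± 18.0 CPM in ctrl (SD, n = 3), 39.9 ± 6.25 CPM in 4OHT and 57.3 ± 15.9 CPM in 4OHT+Fer1, and its log2 fold changes against ctrl were -0.24 (edgeR adjusted p = 0.734) and 0.26 (0.948). Of the 6 comparisons Vegfb was called in 1, medium against ctrl, where it fell by 1.72 on the log2 scale to 17.1 ± 3.51 CPM (edgeR adjusted p = 0.000423), while Vegfa was high there. Vegfc and Vegfd, the lymphatic ligands, had at most 7 and 5 counts in a sample and were not tested. Pgf, placenta growth factor, had at most 7 counts and was not tested either.

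None of the 4 VEGF receptor genes tested was called in a comparison between supernatants, beside at most 1.11% of all genes tested. In 4OHT against ctrl the log2 fold changes were -0.03 for Flt1, 0.10 for Kdr, 0.06 for the co-receptor gene Nrp1 and 0.24 for Nrp2 (edgeR adjusted p from 0.617 to 0.978). In medium, Flt1 was at 26.1 ± 9.98 CPM (SD, n = 2) against 3.42 ± 1.71 CPM in ctrl, a log2 fold change of 2.73 (edgeR adjusted p = 5.62e-05). Thus Flt1 rose in the group with the highest Vegfa, and the other receptors did not pass the test and the fold threshold there, with log2 fold changes of 0.66 for Kdr, 0.56 for Nrp1 and -0.13 for Nrp2.

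Among 17 other angiogenic factors 12 were tested and 0 were called in 4OHT against ctrl, 4OHT+Fer1 against ctrl or Fer1 against ctrl. The share called over all genes tested was 1.11%, 0.0311% and 0% in these comparisons. Thbs1, which encodes the angiogenesis inhibitor thrombospondin 1, was at 65.1 ± 29.1 CPM in 4OHT and 12.4 ± 5.53 CPM in 4OHT+Fer1 (log2 fold change 2.47, edgeR adjusted p = 0.0135). Against ctrl (22.4 ± 5.45 CPM) its value in 4OHT was 1.61 with an adjusted p of 0.0649, and it was called there by DESeq2 and with replicate 3 left out. Ang, which encodes angiogenin, was lower in 4OHT than in 4OHT+Fer1 by 1.01 on the log2 scale (log2 fold change -1.01, edgeR adjusted p = 0.0466). Both calls were lost with replicate 1 or replicate 2 left out or with only these groups fitted, and that of Ang also with replicate 3 left out and without the replicate block. In medium against ctrl, where 7.79% of all genes tested were called, 5 of the 12 were called. Thbs1 (1.93), Pdgfb (1.98) and Angptl4 (1.89) were higher and Ang (-1.53) and Pdgfa (-1.36) lower. With replicate 1 or replicate 2 left out, which leaves 1 medium sample, only Flt1 and Pdgfb of all listed genes were still called in medium against ctrl.

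The genes of the HIF pathway and its targets were examined because Vegfa is one of those targets. Of 11 HIF pathway genes 9 were tested and 0 were called in any of the 6 comparisons. The share over all genes tested was at most 1.11% between supernatants and 7.79% in medium against ctrl, so 0 of 9 genes says little. Hif1a, the oxygen-regulated subunit, was at 70.6 ± 6.82 CPM in ctrl, 84.0 ± 18.5 CPM in 4OHT and 55.1 ± 2.63 CPM in 4OHT+Fer1, with log2 fold changes against ctrl of 0.24 (edgeR adjusted p = 0.649) and -0.35 (0.948). Epas1, its relative HIF-2α, was at 3.22 ± 1.46 CPM in ctrl and 2.39 ± 0.879 CPM in 4OHT (-0.42, 0.848).

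Of 30 hypoxia-response genes other than Vegfa 29 were tested. Beside at most 1.11% of all genes tested, 0 of these 29 were called in any comparison between supernatants. Their median log2 fold change was -0.16 in 4OHT against ctrl and -0.14 in 4OHT+Fer1 against ctrl, beside 0.01 and 0.03 over all genes tested, and 10 and 11 of the 29 had a positive value. In 4OHT against ctrl the values were -0.51 for the glucose transporter gene Slc2a1, -0.61 for Ldha (lactate dehydrogenase), -0.45 for Pgk1 (phosphoglycerate kinase) and -0.12 for Bnip3 (mitophagy), each with an edgeR adjusted p of 0.154 or more. In medium against ctrl, where Vegfa was high, their median was -0.33, beside 0.01 over all genes tested, and 6 of the 29 had a positive value. There 4 of the 29 were called, beside 7.79% of all genes tested, with Hk2 (1.01) and Plin2 (1.10) higher and Slc2a1 (-1.07) and Aldoc (-1.58) lower. With scaling by library size only, Hk2 and Plin2 were not called, and Fam162a, Ldha, Pdk1 and Pgk1 were called beside Slc2a1 and Aldoc. Against the mean of the 4 supernatant groups only Aldoc was called.

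Of 6 genes whose proteins bind Vegfa mRNA all 6 were tested and 0 were called between supernatants, beside at most 1.11% of all genes tested. With replicate 3 left out Zfp36, which encodes tristetraprolin, was called in 4OHT against ctrl and against 4OHT+Fer1. It was at 19.0 ± 12.3 CPM in ctrl, 25.6 ± 5.38 CPM in 4OHT and 13.0 ± 3.74 CPM in 4OHT+Fer1 (SD, n = 3), and with all replicates its log2 fold changes were 0.55 (edgeR adjusted p = 0.641) and 1.03 (0.207). Zfp36l1, which encodes a related protein that promotes decay of mRNAs with AU-rich elements, was higher in medium than in ctrl (log2 fold change 1.16, edgeR adjusted p = 0.00272), and in 4OHT against ctrl, where Vegfa was low, its value was 0.36 and was not called.

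Klk1b11 stood alone in its family in these cells. The other 13 glandular kallikreins, Klk1 included, together had 16 counts over the 14 samples against 508 of Klk1b11, 11 of them had 0 counts in every sample, and none could be tested. A count of 0 over a library allows up to 0.272 to 0.381 CPM. Klk1b1 reached at most 5 counts in a sample and Klk1b9 at most 2. The 12 other tissue kallikreins had 11 counts in all. The stretches of 300 bases at the 3′ end were 75.0% to 88.7% identical between Klk1b11 and its 13 relatives (median 85.3%), so reads with mismatches could in part be given to the wrong relative. Of the kinin system 1 of 7 genes was tested, Klkb1 (plasma kallikrein), and it was not called in any comparison. The kininogen genes Kng1 and Kng2 had 0 and 2 counts over all samples.

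The 3 relatives of Mex3b were present in all 5 groups. Mex3c was at 15.7 ± 6.11 CPM in ctrl, 14.6 ± 4.08 CPM in 4OHT and 11.9 ± 6.55 CPM in 4OHT+Fer1. Mex3d was at 5.10 ± 1.34, 6.38 ± 2.87 and 6.01 ± 1.38 CPM, and Mex3a at 1.02 ± 0.644, 0.805 ± 0.605 and 0.658 ± 0.228 CPM. Their log2 fold changes in 4OHT against ctrl were -0.10, 0.25 and -0.39 (edgeR adjusted p from 0.873 to 0.957), and 0 of the 3 were called in any of the 6 comparisons. Over all genes tested that share was at most 1.11% between supernatants and 7.79% in medium against ctrl. Mex3a had 98 counts over the 14 samples against 188 of Mex3b, so its test had less depth.

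Of 11 genes of the TLR3 pathway 10 were tested and 0 were called between supernatants, beside at most 1.11% of all genes tested. With replicate 3 left out Unc93b1, which encodes a chaperone of endosomal Toll-like receptors, was called in 4OHT against 4OHT+Fer1, where it was at 540 ± 210 and 314 ± 68.3 CPM and had a log2 fold change of 0.78 with all replicates (edgeR adjusted p = 0.235). Tlr3 was at 20.5 ± 9.68 CPM in ctrl, 20.7 ± 5.84 CPM in 4OHT and 22.7 ± 4.85 CPM in 4OHT+Fer1, and Ticam1, which encodes its adapter TRIF, at 16.6 ± 4.93, 16.3 ± 0.540 and 18.8 ± 2.46 CPM. In medium, Irf7, an interferon regulatory factor, was higher than in ctrl (log2 fold change 1.5, edgeR adjusted p = 0.00392), while the medium samples of Mex3b overlapped with ctrl.

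**Figure D3:**
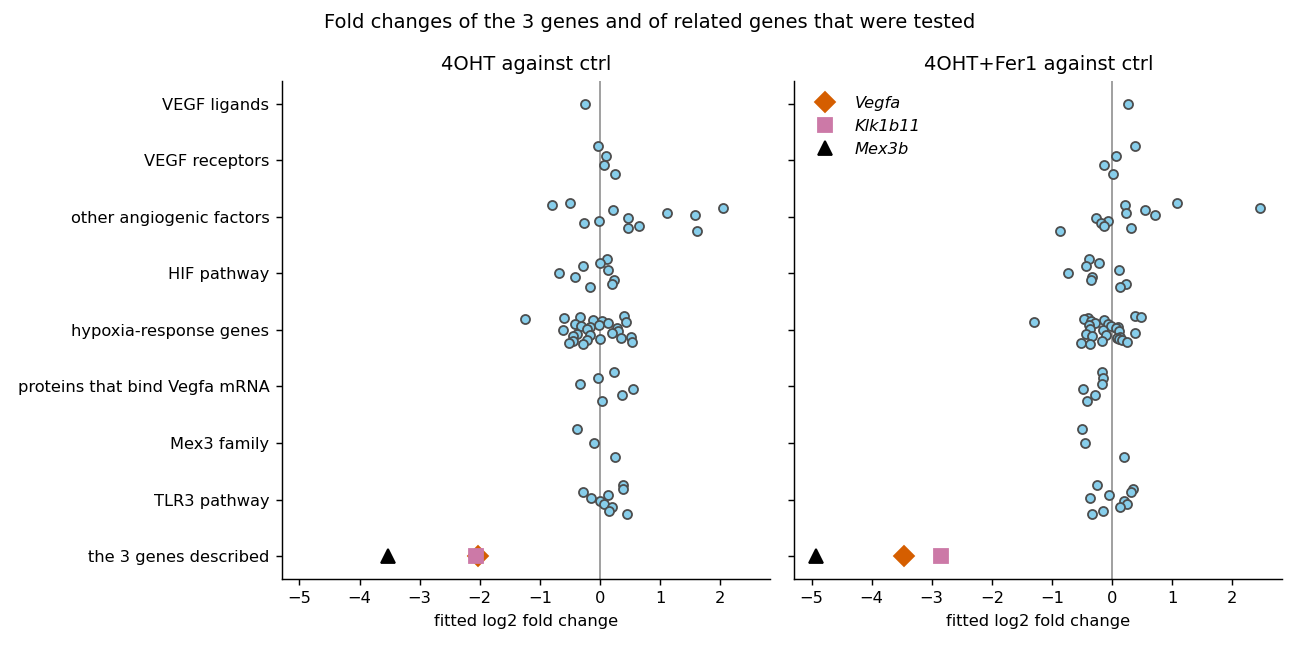
Fitted log2 fold changes (horizontal axes) of the tested genes of 8 lists (blue points, 1 per gene) and of Vegfa, Klk1b11 and Mex3b (bottom line) in 4OHT against ctrl and in 4OHT+Fer1 against ctrl. The 3 genes lie at -2.03, -2.06 and -3.53 on the left and at -3.47, -2.84 and -4.92 on the right, below every blue point in either panel.

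The genes next to the 3 on their chromosomes were examined too. The nearest tested genes were Mrpl14 and Mrps18a for Vegfa, Ctu1 and 2410002F23Rik for Klk1b11, and Efl1 and Gm16638 for Mex3b. In 4OHT against ctrl their log2 fold changes ran from -0.17 (Mrps18a) to 0.37 (2410002F23Rik) and none of the 6 was called in any of the 6 comparisons. Over all genes tested at most 1.11% were called between supernatants and 7.79% in medium against ctrl. Vegfa and Mrps18a lie 78627 bp apart with 1 untested gene between, and Klk1b11 and 2410002F23Rik 246836 bp apart with 20 untested genes between.

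Over the 14 samples, the levels of Vegfa and Mex3b on the log2 CPM scale had a Pearson correlation of 0.945, and of 11242 genes with a name Mex3b ranked 2nd for Vegfa and Vegfa 1st for Mex3b. These correlations are a description, since the genes were chosen for a shared pattern and the samples share their groups and replicate numbers. The 5 genes most like Vegfa were Nlrp3 (0.959), Mex3b (0.945), Creb5 (0.936), Maml2 (0.850) and Enc1 (0.839). For Mex3b they were Vegfa (0.945), Nlrp3 (0.919), Creb5 (0.886), N4bp3 (0.846) and Enc1 (0.834). Nlrp3, Creb5 and Enc1 stood in both lists. With Spearman's correlation in place of Pearson's, 3 of the 5 names of Vegfa, 2 of Mex3b and 2 of Klk1b11 were kept, and of these 3 shared genes Nlrp3 alone stood in both lists.

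Nlrp3, which encodes the sensor of the NLRP3 inflammasome, was at 23.3 ± 2.60 CPM in ctrl, 23.9 ± 4.02 CPM in Fer1, 8.68 ± 3.08 CPM in 4OHT, 5.43 ± 2.37 CPM in 4OHT+Fer1 and 32.8 ± 2.48 CPM in medium, the order of Vegfa except that ctrl and Fer1 changed places. Creb5, which encodes a transcription factor of the CREB family, was at 111 ± 16.0 CPM in ctrl, 96.8 ± 12.8 CPM in Fer1, 48.3 ± 14.8 CPM in 4OHT, 40.3 ± 13.4 CPM in 4OHT+Fer1 and 170 ± 19.3 CPM in medium. In both genes no sample of 4OHT or 4OHT+Fer1 reached a sample of the other groups, as in Vegfa and Mex3b. Both were picked for their likeness to Vegfa and Mex3b in these same samples, so this separation follows in large part from the choice. Of all genes tested, 5.85% had all 4OHT samples below ctrl and 2.85% had all 4OHT+Fer1 samples below ctrl. Enc1, N4bp3 and Maml2 were lower in both 4OHT groups than in ctrl by means of smaller size, with Maml2 at 34.4 ± 3.37 CPM in ctrl and 22.8 ± 1.86 CPM in 4OHT+Fer1.

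Klk1b11 was most like Bcl2a1b (0.960), an anti-apoptotic gene of the BCL2 family with near-identical copies between which reads can be divided, followed by Stt3b (0.890), P4ha1 (0.871), Rab37 (0.867) and Trim35 (0.867). Vegfa ranked 98th for Klk1b11 (0.728) and Mex3b 42nd (0.766). With the replicate number removed from the log2 levels, the correlation of Klk1b11 rose to 0.864 with Vegfa and to 0.941 with Mex3b, and its 5 most alike genes became Bcl2a1b, Mex3b, Maml2, Nlrp3 and Vegfa, of which 1 had been among the first 5. The lists of Vegfa and Mex3b kept 4 and 3 of their 5 names.

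**Figure D4:**
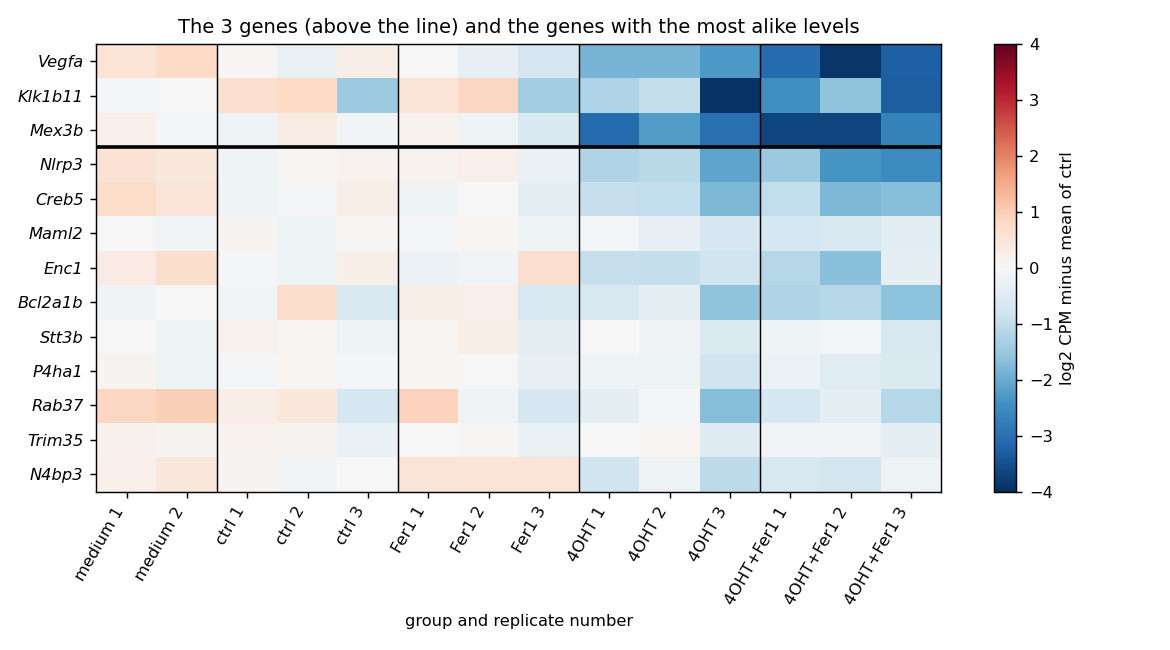
Log2 CPM minus the mean of ctrl (colour scale from -4 to 4, blue lower, red higher) of Vegfa, Klk1b11 and Mex3b (above the line) and of the genes with the highest Pearson correlation to them (below it) in the 14 samples, by group and replicate number. Nlrp3 and Creb5 are blue in all 6 samples of 4OHT and 4OHT+Fer1, and Klk1b11 is also blue in replicate 3 of ctrl and Fer1.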

How the data were processed

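RNA was read with a 3′ end library kit (Lexogen QuantSeq, single-end reads of 50 bases). The deposited table holds estimated counts per gene, which the authors made with STAR 2.7.10a and Salmon 1.5.2 per their methods and processing notes; these list both GRCh38 and GRCm38, and the gene IDs are mouse. Whether counting used strand is not given in the sources used here. A second table, with CPM and the authors' DESeq2 fold changes and p-values, was not used.

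Estimated counts (30109 values not whole) were rounded. Genes were filtered with filterByExpr (minimum count 10), scaled by TMM and fitted over all 14 samples with edgeR 4.0.16 in R 4.3.3 (glmQLFit, glmQLFTest, replicate number as a block as the authors' mouse ID), with Benjamini-Hochberg adjustment over 12851 genes. Calls needed a log2 fold change over 1 and adjusted p below 0.05. The code was tested on simulated data. CPM used TMM library sizes. Log2 levels used a prior count of 2. Promoters came from RefSeq and all 3 genes matched.

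The replicate numbers in the labels were taken as mice. Over 26 pairs of samples with the same number the deviations from group means correlated with a median r of 0.247 (0.00221 to 0.646), and over 52 other pairs with -0.139. The labels do not say that replicates are separate animals or cultures, so p-values measure the spread between these samples. Medium against the mean of the supernatant groups was fitted as planned, but no p is given for the 3 genes, nor for Mex3b in 4OHT against 4OHT+Fer1, where it had few counts.

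The 3 genes and all lists were chosen with earlier results of these data known. Named genes were the 3 members, the detected genes of their families, listed genes called in a comparison plus 8 fixed ones, the 5 named genes most correlated with each member and the nearest tested genes on each side. Fits with no block, DESeq2 1.42.0, other scalings, no filter, only the groups compared and each replicate left out were tried. One macrophage marker of the planned list is not reported here and was left out of the summed levels.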

Additional observations from a re-analysis of the deposited data

How the results depend on the processing

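Of 105 alternative values of the described differences of Vegfa, Klk1b11 and Mex3b none changed sign, and 6 moved by more than the spread between replicates, each with a replicate left out. Except for medium against the mean, the genes were chosen for these differences in the same samples, so a kept sign is no evidence for them. With 1 replicate left out at a time, Mex3b ran from -4.11 to -3.36 in 4OHT against ctrl, from -7.67 to -4.25 in 4OHT+Fer1 against ctrl and from -7.59 to -3.98 in 4OHT+Fer1 against Fer1. The lowest value of the last 2 was reached without replicate 3, which leaves 0 counts of Mex3b in 4OHT+Fer1. Medium against the mean of the supernatant groups ran from 1.76 to 2.36 for Vegfa and from 1.72 to 2.79 for Mex3b. Of the tested differences, Vegfa in 4OHT against 4OHT+Fer1 ran from 1.14 to 1.66, and Klk1b11 in Fer1 against ctrl from -0.062 (without replicate 3) to 0.046 (without replicate 1), a change of sign near 0. Mex3b failed the filter in 4OHT against 4OHT+Fer1 with only these groups, and medium against the mean has no such fit.

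The replicate number as a block changed calls. Without it the Vegfa value in 4OHT against 4OHT+Fer1 was 1.43 and, with only these groups fitted, 1.46 (edgeR adjusted p = 0.105), both no longer called. Without the block the genes called were 6 in 4OHT against ctrl, 1 in 4OHT+Fer1 against ctrl, 1 in 4OHT+Fer1 against Fer1, 18 in 4OHT against 4OHT+Fer1 and 457 in medium against ctrl. In the same order DESeq2 called 276, 14, 9 and 247 in the first 4, and 3 in Fer1 against ctrl. With no filter 259, 9, 9 and 230 were called, and with only the groups compared 0, 0, 0 and 37. Leaving out 1 replicate gave 0 to 191, 0 to 3, 0 to 2, 0 to 217 and, for medium against ctrl, 87 to 1056. The cause of these shifts was not tested. RLE and library size scaling kept the Vegfa call in 4OHT against 4OHT+Fer1. Depth limits Mex3b in both 4OHT groups.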
